A study of Mus musculus with 11 samples.

Results

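The dermal adipocyte genes are 31 genes known for their roles in fat cells, chosen by symbol from the 38406 genes of a normalized count table of mouse back skin. The rule uses the symbol alone and no measured value. Each was read in 11 libraries, from 5 wild-type mice (replicates 2 to 6) and 6 Trex2-/- mice (replicates 7 to 12) of the strain C57BL/6. All animals were females of 8 to 10 weeks whose shaved backs received 125 mg of 5% imiquimod cream a day on 4 days, and skin was taken 24 hours after the final dose. Imiquimod activates the innate receptor TLR7 and gives a psoriasis-like inflammation of mouse skin. Trex2 encodes a DNA exonuclease of keratinocytes. The knockout is carried in all tissues. No skin without imiquimod was analysed here, and every difference below is between genotypes within treated skin. The submitters call the samples of a group biological replicates, and give no litter or sequencing batch.

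Mouse skin carries a layer of white fat below the dermis, whose cells grow and shrink with the hair cycle. These cells take fatty acids from the blood, store them as triglyceride in a single droplet, release them again by a chain of lipases, and secrete hormones such as adiponectin and leptin. The nuclear receptor PPARγ and the factor C/EBPα direct this programme, and many of its genes are also used by sebaceous glands, muscle, macrophages or the vessel wall. The RNA came from pulverized whole skin, so fewer fat cells and less RNA per fat cell cannot be told apart.

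Depth ran from 1208896 to 5853454 reads per wild-type library and from 3125366 to 15557862 per knockout library, and the deepest 5 were all knockout. Trex2, the check of the labels, lay between 1125 and 2196 normalized counts in wild type and between 0.794 and 3.47 in knockout (log2 difference −9.03, SE 0.25, exact permutation test, two-sided, p = 0.00216). All 6 adipocyte markers used to check the tissue (Adipoq, Cfd, Plin1, Cidec, Retn and Lep, all members themselves) had reads in every library. Of the 31 genes, 30 passed the minimum mean of 10 normalized counts, and 25 of them had at least 10 reads in every library. Scaled to exon length and averaged over the libraries, the most abundant were Cfd with 4382 normalized counts per kilobase, Fabp4 with 1093, Car3 with 768, Cidec with 493 and Cd36 with 414. The lowest of the 30 were Aqp7 with 7.35 and Acvr1c with 1.93 per kilobase.

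The promoters of 4 genes are shown because the levels of Thrsp and Retn moved with Adipoq across the libraries, while that of Plin1, which coats the lipid droplet, did so less. Each runs from 250 bases before to 50 after the start of the RefSeq transcript on GRCm38.p6, 5′ to 3′, and capitals mark CCAAT, TTGCNNAA and TATAAA on either strand (CCAAT reads ATTGG on the other strand).
Adipoq, chr16:23146286-23146585, plus strand: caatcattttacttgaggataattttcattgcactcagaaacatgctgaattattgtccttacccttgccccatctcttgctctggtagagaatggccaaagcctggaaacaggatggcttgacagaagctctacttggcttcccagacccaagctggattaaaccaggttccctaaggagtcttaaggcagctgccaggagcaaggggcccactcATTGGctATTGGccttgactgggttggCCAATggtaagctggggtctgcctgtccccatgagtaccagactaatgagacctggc
Thrsp, chr7:97417501-97417800, minus strand: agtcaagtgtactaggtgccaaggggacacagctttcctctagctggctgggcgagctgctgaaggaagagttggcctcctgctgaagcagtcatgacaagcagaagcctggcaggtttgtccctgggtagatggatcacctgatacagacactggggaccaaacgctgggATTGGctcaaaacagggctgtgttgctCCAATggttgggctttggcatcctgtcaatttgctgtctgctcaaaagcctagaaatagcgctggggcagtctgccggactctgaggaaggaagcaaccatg
Retn, chr8:3655520-3655819, plus strand: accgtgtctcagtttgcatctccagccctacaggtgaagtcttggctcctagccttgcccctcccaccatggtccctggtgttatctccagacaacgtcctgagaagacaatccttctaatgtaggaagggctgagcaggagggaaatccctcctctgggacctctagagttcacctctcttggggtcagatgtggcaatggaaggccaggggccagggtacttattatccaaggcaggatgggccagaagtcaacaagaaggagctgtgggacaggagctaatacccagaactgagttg
Plin1, chr7:79732727-79733026, minus strand: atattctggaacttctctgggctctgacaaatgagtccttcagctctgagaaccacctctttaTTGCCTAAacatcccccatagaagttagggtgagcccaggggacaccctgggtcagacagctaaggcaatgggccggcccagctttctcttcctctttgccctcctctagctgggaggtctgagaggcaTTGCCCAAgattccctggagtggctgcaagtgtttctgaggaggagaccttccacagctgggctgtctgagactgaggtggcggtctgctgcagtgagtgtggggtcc
The table of promoters held 21 of the 31 genes, with 29 promoters. CCAAT, the core of the site bound by NF-Y, was found 3 times in Adipoq, 2 times in Thrsp and not in Retn. It stood in 8 of the 29 promoters (27.6%) and in 37.4% of all 32851 promoters of this length. TTGCNNAA, a form of the C/EBP site, stood in 4 of the 29 (13.8%; Lep, Cidec, Pparg and Plin1) and in 10.8% of all. The strict PPAR response element of direct repeats spaced by 1 base was in none of the 29 and in 0.0396% of all, CACGTG in 2 of the 29 (Mgll and Lipe) against 7.15%, and TATAAA in 2 (Pparg and Cebpa) against 13.6%. All motifs were searched on both strands, and each was counted whether or not it overlapped another. These matches describe the letters of a short window and say nothing of binding.

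No dermal adipocyte gene passed the adjusted threshold of 0.05 with limma, and the lowest adjusted p was 0.108. Among all 13215 genes tested, 2 passed (0.0151%; 0.00757% higher and 0.00757% lower in knockout). At an unadjusted p of 0.05, 8 of the 30 were lower and 1 was higher in knockout, beside 11.5% lower and 12.9% higher among all genes. By size alone, 19 were lower and 11 higher, beside 49% and 51% of all genes. The median log2 difference of the 30 was −0.26, with a range of −1.04 to 0.59, and the median of all genes was 0.01. Without wild-type replicate 2 the median was −0.14, with depth as a covariate −0.05, and within the 7 libraries of 3000000 to 8000000 reads −0.06. The medians of all genes under these settings are not given here. No gene had groups that did not overlap, where 1.02% of all genes lay wholly higher and 1.29% wholly lower in knockout. DESeq2, run on recovered reads, called Sncg (adjusted p = 0.0137) and Angptl4 (0.0425) lower and Cebpa (0.04995) higher, beside 2.64% of all genes lower and 3.02% higher, and edgeR called 0 of the 30, beside 0.0227% of all genes lower and 0.00757% higher. Without wild-type replicate 4 limma called Sncg and Fabp4 lower (adjusted p = 0.0332 and 0.0488), beside 2.11% of all genes lower and 3.5% higher.

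**Figure D1:**
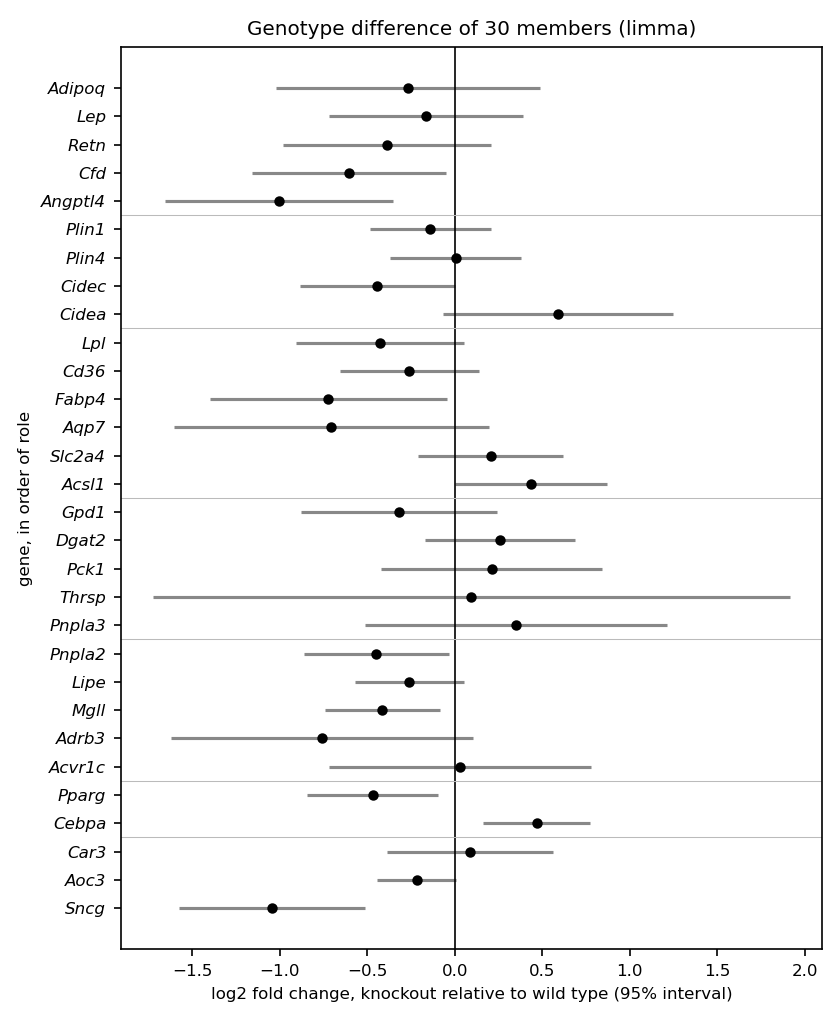
Log2 difference, knockout minus wild type, of the 30 genes tested, on the log2(normalized count + 1) scale, grouped by role; points are limma estimates and bars their 95% confidence intervals. Of the 30 intervals 21 include 0, and the points run from −1.04 for Sncg to 0.59 for Cidea.

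Values varied widely across the libraries. The ratio of the highest to the lowest library exceeded 3 for 15 of the 30 genes, with a median of 2.99. Wild-type replicate 2 was the highest library for 13 genes, wild-type replicate 3 for 5, and wild-type replicate 5 and knockout replicate 12 for 4 each. Knockout replicate 12 was the lowest for 11 and knockout replicate 10 for 5. Knockout replicate 12 thus held both the lowest value of 11 genes and the highest of 4.

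**Figure D2:**
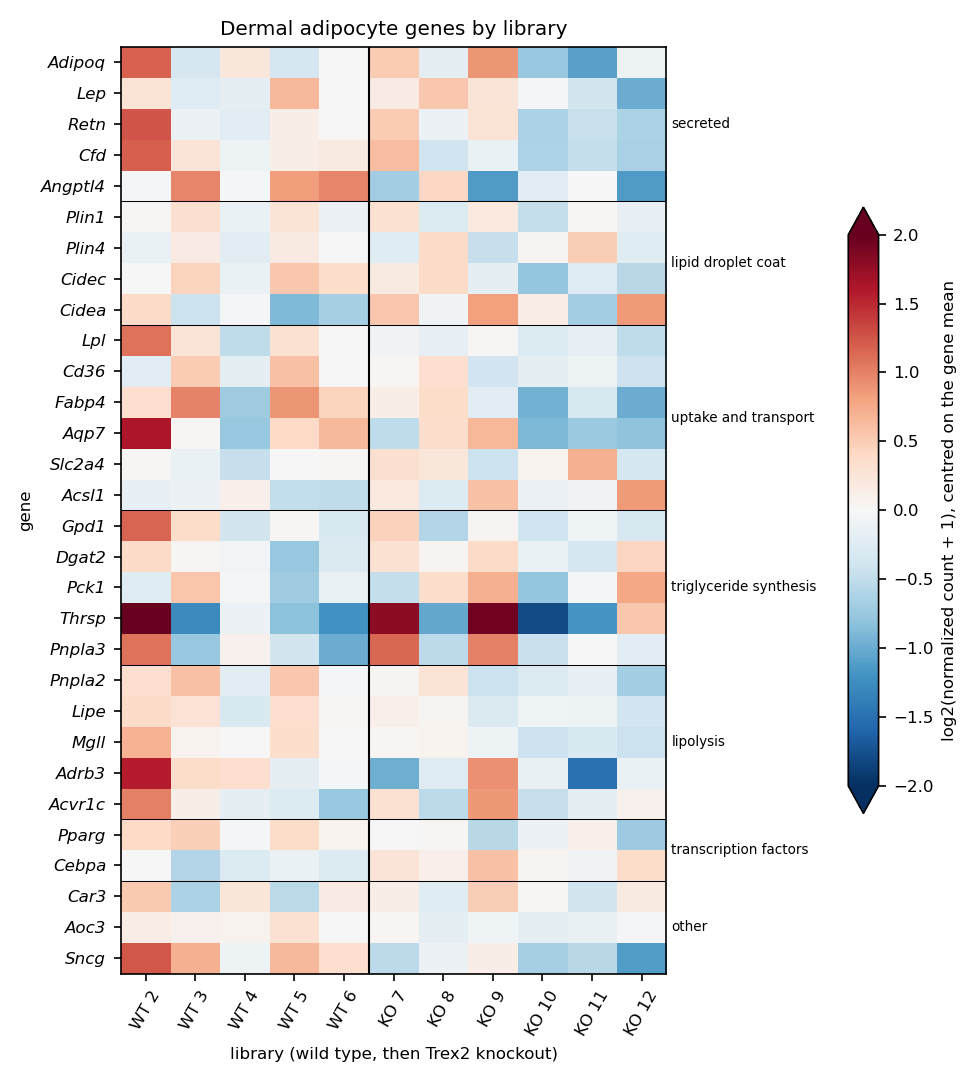
Log2(normalized count + 1) of each gene tested in each of the 11 libraries, less the gene's mean over all libraries, with the colour scale clipped at 2 in each direction; rows are grouped by role. Wild-type replicate 2 is the highest library for 13 of the 30 rows and knockout replicate 12 the lowest for 11.

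The 5 secreted products all had lower means in knockout, with a median log2 difference of −0.39. Angptl4 encodes a secreted inhibitor of lipoprotein lipase and is also made outside fat. The gene lies on chromosome 17 (33773750 to 33781830, minus strand, GRCm38, GENCODE M21). It had 609.8, 1241, 619, 1126 and 1233 normalized counts in wild-type replicates 2 to 6. The knockout libraries lay between 285 and 841, with a median of 467. All 6 knockout libraries were below the wild-type mean and 4 were below every wild-type library, yet the groups overlapped. The log2 difference of Angptl4 was −1.0 (SE 0.30, 95% interval −1.65 to −0.36, limma adjusted p = 0.108), and the knockout mean was 0.513 times the wild-type mean. With a keratinocyte score (the mean log2 level of 10 keratinocyte markers) as a covariate the difference was −0.29, with an endothelial score made the same way −0.34, and without knockout replicates 9 and 12 it was −0.67.

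Cfd encodes complement factor D, also called adipsin. It had 8551, 4477, 3486, 4106 and 4260.0 normalized counts in the wild-type libraries in order, and 2405 to 5743 in knockout with a median of 2766. Wild-type replicate 2 and knockout replicate 7 stood above their groups, and 5 of 6 knockout libraries lay below every wild-type one. The log2 difference was −0.61 (SE 0.26, adjusted p = 0.176 by limma), and −0.39 without wild-type replicate 2. With depth as a covariate it was −0.16, and within the libraries of 3000000 to 8000000 reads −0.32.

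Adipoq encodes adiponectin, a hormone made almost only by fat cells. Its gene lies on chromosome 16 (23146536 to 23158028, plus strand). Adipoq had 653, 226, 335, 227 and 286 normalized counts in wild type and 135 to 529 in knockout, with a median of 260.3. Wild-type replicate 2 was the highest and the rest of the groups were interleaved. Means were 345 ± 178 (SD, n = 5) and 294 ± 149.6 (SD, n = 6). The log2 difference was −0.27, with an interval of −1.02 to 0.49, and −0.01 without wild-type replicate 2. Retn, the gene of resistin, had the same high library with 935, where replicates 3 to 6 of wild type had 337 to 427, and 251 to 554 in knockout with a median of 323. Its log2 difference of −0.39 became −0.13 without that library, −0.046 with depth as a covariate and −0.077 within the libraries of 3000000 to 8000000 reads. Lep, the gene of leptin, ranged from 72.2 to 136 in wild type, against 43 to 126 in knockout (log2 difference −0.16, interval −0.72 to 0.39).

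**Figure D3:**
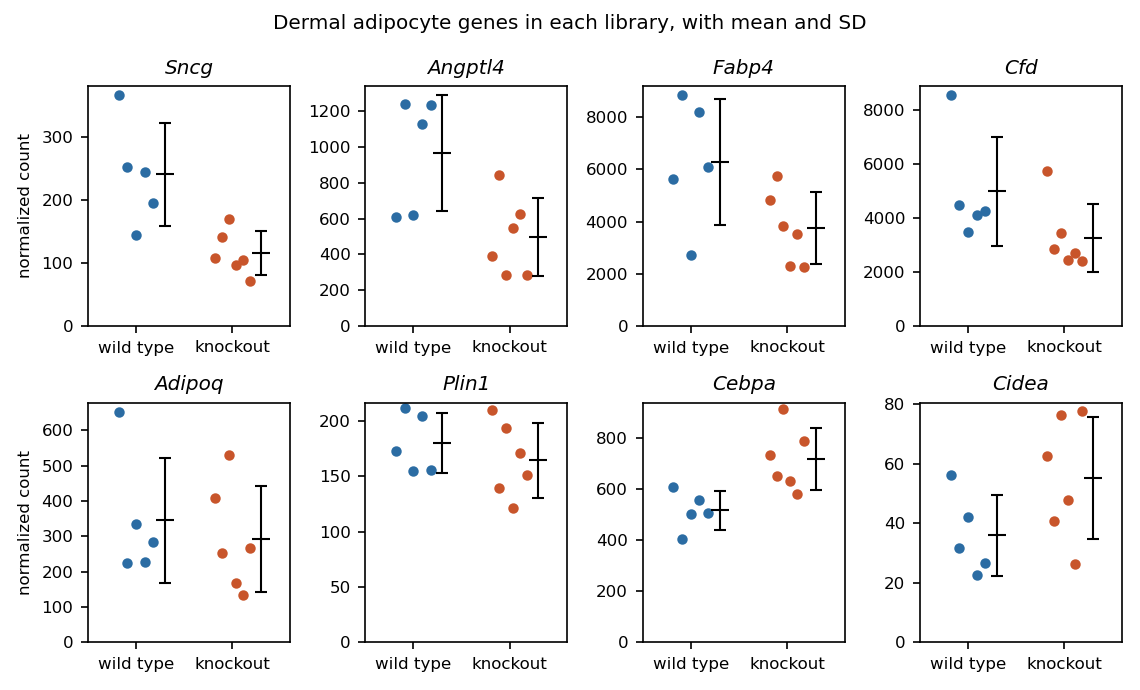
Normalized counts of 8 dermal adipocyte genes in each library (points), with the group mean (line) and SD (bar), wild type n = 5 and knockout n = 6, on linear axes that start at 0. Sncg and Angptl4 have lower and Cebpa and Cidea higher knockout means, and the points of the groups overlap in every panel.

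The genes of droplet coat proteins were split, with 2 of 4 lower and 2 higher. Plin1 and Plin4 encode perilipins, which coat the droplet. Both were among the steadier genes, with a highest library 1.75 and 1.94 times the lowest, against a median of 2.99 for the 30. Plin1 had 172, 212, 155, 204 and 155 in wild type and 121 to 209.9 in knockout (log2 difference −0.14, SE 0.16). Plin4 averaged 638 ± 79.0 in wild type and 655 ± 176 in knockout, with an interval of −0.37 to 0.38 for its log2 difference. Cidec and Cidea encode proteins that fuse and enlarge droplets. Cidec had 877, 1196, 803, 1287 and 1129.7 in wild type and 517 to 1153 in knockout, with a median of 756 (log2 difference −0.44, interval −0.88 to −0.00, adjusted p = 0.204 by limma). Knockout replicates 7 and 8 lay among the wild-type libraries and the other 4 below all of them. The difference of Cidec was −0.063 within the libraries of 3000000 to 8000000 reads, −0.12 with depth as a covariate, −0.16 with the keratinocyte score and −0.21 with the endothelial score. Cidea had 56.3, 31.6, 42.3, 22.7 and 26.7 in wild type and 26.3 to 77.7 in knockout with a median of 55.1. It was above every wild-type library in 3 of 6 knockout libraries, and its log2 difference of 0.59 (SE 0.31, adjusted p = 0.248) was the highest of the 30. Cidea was measured on 118 reads over the wild-type libraries, and on as few as 7 reads in a library. With the keratinocyte score as a covariate the difference of Cidea was −0.030, and with the endothelial score 0.015. Cidea is also made by sebaceous glands. Its r with a sebaceous score made the same way was 0.481 over the 11 libraries (permutation p = 0.136, adjusted 0.306). Which cells gave its reads was not tested.

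Of the 6 genes of uptake and transport, 4 were lower and 2 higher, with a median of −0.34. Fabp4 encodes the fatty acid carrier of the fat cell cytosol, which vessels and macrophages also hold. It had 5628, 8863, 2725, 8186 and 6077 in wild type and 2239 to 5726 in knockout with a median of 3694. The lowest wild-type library, replicate 4, lay within the knockout range, and so did replicate 2. The log2 difference of Fabp4 was −0.72 (SE 0.32, adjusted p = 0.184 by limma). Without replicate 4 it was −0.997, with depth as a covariate −0.14, within the libraries of 3000000 to 8000000 reads −0.15, with the keratinocyte score −0.12 and with the endothelial score −0.28. Lpl, the lipase that frees fatty acids from lipoproteins at the vessel wall, had 6208, 3497, 2057, 3626 and 2951 in wild type and 2046 to 2968 in knockout. All 6 knockout libraries were below the wild-type mean, which wild-type replicate 2 raised. The log2 difference of Lpl was −0.43, and −0.21 without that library.

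Cd36, a fatty acid translocase, ranged from 1247 to 2173 in wild type, against 1083 to 1825 in knockout (log2 difference −0.26, interval −0.66 to 0.14). Aqp7, the glycerol channel, was measured on as few as 4 reads in a library, with 10.0 to 56.3 in wild type, against 9.07 to 28.6 in knockout (log2 difference −0.71, interval −1.61 to 0.19). The difference of Aqp7 was −0.40 without wild-type replicate 2, −0.99 without wild-type replicate 4 and −0.30 within the libraries of 3000000 to 8000000 reads. That of Cd36 was −0.055 within those libraries, −0.078 with depth as a covariate, 0.12 with the keratinocyte score and 0.056 with the endothelial score. The other members of the group had higher knockout means. Slc2a4, the insulin-regulated glucose transporter of fat and muscle, had 294 to 411 in wild type, against 301 to 667 in knockout, with 4 knockout libraries above all wild-type ones (log2 difference 0.21, and 0.081 without knockout replicate 11). Acsl1, which couples fatty acids to coenzyme A, had 717, 745, 867, 575 and 568 in wild type and 672 to 1463 in knockout. Its highest libraries were knockout replicates 12, 9 and 7, and its log2 difference was 0.43 (SE 0.20, adjusted p = 0.205).

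The 5 genes of triglyceride synthesis were 4 higher and 1 lower on the log2 scale, with a median of 0.21. One of the 4, Thrsp, had a log2 difference of 0.10 but a knockout mean count 0.737 times that of wild type, and DESeq2 and edgeR put it at −0.45 and −0.50. Gpd1, which makes the glycerol backbone, was the lower one, with 1165, 668, 403, 526 and 419 in wild type and 347 to 718 in knockout. Its log2 difference of −0.32 became −0.07 without wild-type replicate 2. Dgat2, the enzyme of the final acylation, had 445 to 984 in wild type, against 595 to 1022 in knockout (log2 difference 0.26, interval −0.17 to 0.69). Pck1, which feeds glycerol synthesis, had 61.7 to 149 and 59.2 to 174 (log2 difference 0.21). Both genes had overlapping groups. Pnpla3, a lipase-like protein induced by feeding, had 116, 31.6, 57.8, 41.8 and 26.7 in wild type and 37.4 to 121 in knockout (log2 difference 0.35, interval −0.51 to 1.21). Leaving out 1 library moved the difference of Pnpla3 between 0.15, without wild-type replicate 6 or knockout replicate 7, and 0.67, without wild-type replicate 2. That of Dgat2 moved between 0.10, without wild-type replicate 5, and 0.39, without wild-type replicate 2, and that of Pck1 between 0.063, without wild-type replicate 5, and 0.38, without knockout replicate 10.

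Thrsp encodes Spot 14, a regulator of lipogenesis, and was the most uneven of the 30 genes. The gene lies on chromosome 7 (97412938 to 97417730, minus strand). It had 693, 31.6, 71.2, 43.6 and 33.0 normalized counts in wild type. In knockout replicates 7 to 12 it had 271, 37.4, 296, 21.7, 33.8 and 112. The highest library held 32.0 times the lowest, and high and low libraries occurred in both groups. The log2 difference was 0.10 with an interval of −1.73 to 1.92. It was 0.89 without wild-type replicate 2 and −0.50 without knockout replicates 9 and 12, so its direction changed with the libraries included.

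Of the 5 lipolysis genes 4 were lower and 1 was higher, with a median of −0.41. The lipases act in the order Pnpla2 (adipose triglyceride lipase), Lipe (hormone-sensitive lipase) and Mgll (monoglyceride lipase). For each of these 3 genes all 6 knockout libraries were below the wild-type mean. Pnpla2 had 1370.1, 1625, 931, 1574 and 1058 in wild type and 674 to 1309.9 in knockout with a median of 925 (log2 difference −0.45, SE 0.19, adjusted p = 0.178). Mgll had 918, 600.2, 574, 723 and 569.6 in wild type and 423 to 598 in knockout with a median of 495 (−0.41, SE 0.15, adjusted p = 0.142). Lipe had 1094, 1024, 679, 1058 and 859.9 in wild type and 649 to 901 in knockout (−0.26, SE 0.15, adjusted p = 0.279). The groups overlapped for each, least for Mgll, where 4 knockout libraries were below every wild-type library. The difference of Pnpla2 was −0.064 with the keratinocyte score as a covariate, −0.13 with the endothelial score, −0.16 with depth and −0.19 within the libraries of 3000000 to 8000000 reads. Lipe stood at 0.0097, −0.062, −0.097 and −0.15 in the same order, and Mgll at −0.35, −0.39, −0.30 and −0.26. Adrb3, the adrenergic receptor that starts lipolysis in rodent fat, had 105 in wild-type replicate 2 and 30.9 to 45.1 in the other wild-type libraries. In knockout it had 11.8 to 66.7 (log2 difference −0.76, interval −1.62 to 0.10; −0.47 without wild-type replicate 2). Acvr1c encodes ALK7, a receptor of the activin family that restrains lipolysis. It had 9.41 to 34.5 in wild type, against 11.1 to 31 in knockout, with an interval of −0.72 to 0.78.

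The factors that direct the fat cell programme had differences of opposite sign. Pparg had 201, 212, 149, 198 and 160.0 in wild type and 91.6 to 163 in knockout, with a median of 147. All 6 knockout libraries were below the wild-type mean, 3 were below every wild-type library, and the groups overlapped. The log2 difference of Pparg was −0.47 (interval −0.85 to −0.09, adjusted p = 0.143 by limma). It was −0.12 with the keratinocyte score as a covariate, −0.16 with the endothelial score, −0.26 with depth and −0.26 without knockout replicates 9 and 12. Cebpa, on chromosome 7 (35119293 to 35121928, plus strand), had 609.8, 406, 504, 560.1 and 507 in wild type. In knockout it had 581 to 915 with a median of 695. Only knockout replicate 11 lay within the wild-type range, and the other 5 were above it. The log2 difference of Cebpa was 0.47 (SE 0.14, interval 0.16 to 0.77, adjusted p = 0.109 by limma). C/EBPα is also made in the epidermis, and the difference was 0.30 with the keratinocyte score and 0.26 with the endothelial score.

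Sncg encodes γ-synuclein, a small protein of white fat and peripheral neurons, and had the lowest log2 difference of the 30. The gene lies on chromosome 14 (34370274 to 34374789, minus strand). It had 367, 253, 145, 244 and 196 normalized counts in wild type, and 108, 142, 169.9, 97.4, 104 and 70.8 in knockout replicates 7 to 12. In 5 of 6 knockout libraries Sncg was below every wild-type library, and knockout replicate 9 lay above wild-type replicate 4. Means were 241 ± 82.5 (SD, n = 5) and 115 ± 35.1 (SD, n = 6), on 782 and 1127 reads in all. The log2 difference was −1.04 (SE 0.25, interval −1.57 to −0.51, limma adjusted p = 0.108). It was −0.87 with the keratinocyte score as a covariate, −0.97 with the endothelial score, −0.93 with a muscle score, −0.77 with depth and −0.70 within the libraries of 3000000 to 8000000 reads.

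The other genes differed less. Car3, carbonic anhydrase 3, is abundant in fat and also in muscle, and had 1381 to 3051 in wild type, against 1650.0 to 3001 in knockout (interval −0.39 to 0.56). Aoc3, a surface amine oxidase of fat cells and vessels, was the steadiest of the set, with 229 to 285 in wild type, against 204 to 236 in knockout. In 5 of 6 knockout libraries Aoc3 was below every wild-type one, at a log2 difference of −0.22 (interval −0.44 to 0.01, adjusted p = 0.221). Ucp1, the uncoupling protein of brown and beige fat, was not tested. It was listed at 0 in wild-type replicates 2 to 5 and at 3.14 in replicate 6, on 2 reads, and at 0 to 1.07 in knockout, on 4 reads. All values of Ucp1 were under the detection limit of 3 reads in their library, which corresponds to 1.04 to 13.5 normalized counts by depth.

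Across the 11 libraries of both genotypes, Adipoq was compared with the 29 other genes tested and with muscle and sebaceous scores, and 4 other genes with the sebaceous score, 35 relations in all. Of the 29 genes, 2 had an adjusted p under the threshold by Pearson's r, Thrsp and Retn. With Thrsp, r was 0.895 (permutation p = 0.00011, adjusted 0.00385) and Spearman's rho 0.836 (p = 0.00227, adjusted 0.0265). Without wild-type replicate 2 and knockout replicate 11, the libraries farthest from the median of Adipoq, r was 0.891, and within the 6 knockout libraries alone it was 0.911 (exact permutation p = 0.0181). With Retn, r was 0.809 (permutation p = 0.00208, adjusted 0.0364) and rho 0.673 (p = 0.0272, adjusted 0.19), and r was 0.671 without those libraries. Within knockout it was 0.791 (exact permutation p = 0.075). Other genes had a similar r within knockout, among them Cebpa with 0.898 (exact permutation p = 0.0167) and Dgat2 with 0.867 (p = 0.0306). Car3 had 0.817 there (exact permutation p = 0.0542) and Plin4 −0.817 (p = 0.0514). The exact p-values within knockout were not adjusted for the number of genes. No correlation was computed over the 5 wild-type libraries alone.

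Car3 followed Adipoq by rank (rho 0.836, permutation p = 0.00204, adjusted 0.0265), with an r of 0.751 (permutation p = 0.00808, adjusted 0.0642). For Car3 r was 0.65 without wild-type replicate 2 and knockout replicate 11. Plin4 had a negative r of −0.753 (permutation p = 0.00812, adjusted 0.0642). Close to Retn also lay Acvr1c, Adrb3, Pnpla3 and Cfd, with r of 0.739, 0.714, 0.709 and 0.684. Their adjusted p was 0.0642 for the first 3 and 0.077 for Cfd (permutation test). The relations of Adipoq with Plin1 (r 0.308, permutation p = 0.355, adjusted 0.54) and Cidec (r 0.142, permutation p = 0.675, adjusted 0.844) were weaker, as was that with Fabp4 (r 0.127). All these genes were read from the same libraries and scaled by the same size factors. Without wild-type replicate 2, r was 0.835 for Thrsp and 0.691 for Retn. The count of 2 genes past the adjusted threshold became 0 without that library, 1 without wild-type replicate 3, knockout replicate 8 or knockout replicate 9, and 4 without knockout replicate 11. For Adipoq r was −0.036 with the muscle score and 0.075 with the sebaceous score. Pparg, which sebaceous glands also make, had a rho of −0.846 with the sebaceous score (permutation p = 0.00176, adjusted 0.0265) and an r of −0.717 (permutation p = 0.0127, adjusted 0.0642). Without knockout replicates 9 and 12 that r was −0.69, and within the 6 knockout libraries it was −0.715 (exact permutation p = 0.133). The sebaceous score averaged −0.46 in wild type and 0.38 in knockout, and the relation pools both genotypes. Cidea, Dgat2 and Thrsp had r of 0.481, 0.288 and 0.074 with the sebaceous score (permutation test, adjusted p = 0.306, 0.549 and 0.88).

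**Figure D4:**
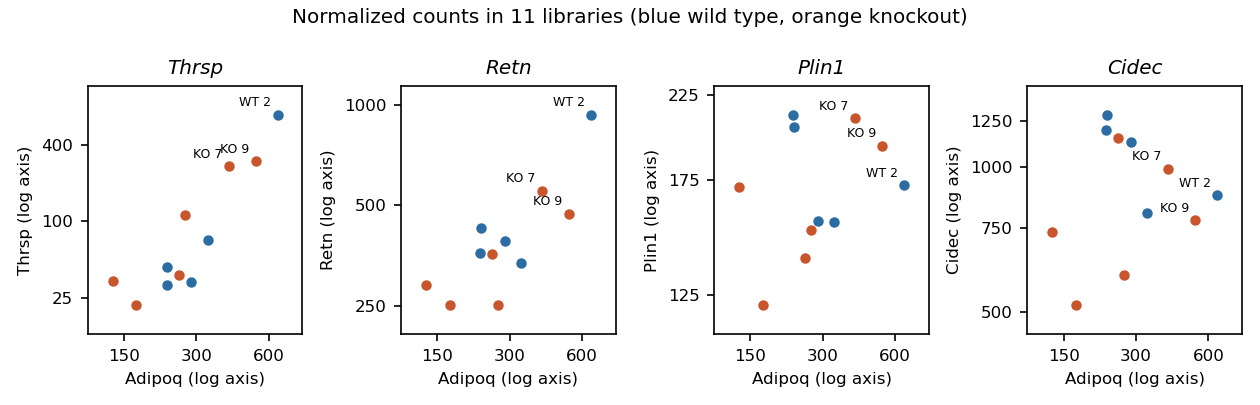
Normalized counts of Thrsp, Retn, Plin1 and Cidec against those of Adipoq in the 11 libraries, on log axes, with wild type and knockout in separate colours. Thrsp and Retn run along with Adipoq (r 0.895 and 0.809 on log2(value + 1)) and Plin1 and Cidec less (0.308 and 0.142).

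Further genes of the same pathways were read from lists of known function, and 0 of their 89 genes tested passed the adjusted threshold with limma or edgeR. DESeq2 called 3, Lrig1 higher and Mest and Ebf1 lower, beside 3.02% of all genes higher and 2.64% lower. At an unadjusted p of 0.05 by limma, 12.9% of all genes were higher and 11.5% lower, beside the counts per list that follow. Of 18 further genes of triglyceride and fatty acid synthesis tested, 14 were higher and 4 lower in knockout (median 0.26), with 2 higher and 1 lower at an unadjusted p of 0.05. The smallest p values there were those of Acaca, which makes malonyl-CoA, with 262 ± 110.0 (SD, n = 5) and 458 ± 167 (SD, n = 6), and Acly, which makes cytosolic acetyl-CoA, with 940.5 ± 143 and 1279 ± 317. Their log2 differences were 0.83 (adjusted p = 0.132) and 0.42 (adjusted p = 0.149). Both enzymes are also used by the epidermis and sebaceous glands. Of 10 further lipid droplet and lipolysis genes tested 6 were lower and 4 higher (2 lower and 1 higher at that p), with Hilpda, an inhibitor of adipose triglyceride lipase, at −0.76 (adjusted p = 0.167) and Lipa, the lysosomal acid lipase, at −0.45 (adjusted p = 0.165).

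Of 14 further uptake genes 8 were lower and 6 higher (median −0.12; 2 lower and 1 higher at an unadjusted p of 0.05). Tusc5, a protein of glucose transporter trafficking in fat, was at −0.77 (147 ± 55.5 and 84.6 ± 24.3, adjusted p = 0.115), and Fabp5, the epidermal fatty acid carrier, at 0.84 (6916 ± 2115 and 13642 ± 8103, adjusted p = 0.173). Of 13 further transcription factors of fat cells 9 were lower and 4 higher (median −0.26; 2 in each direction at that p). Ebf1, which acts with Pparg, was at −0.64 (378 ± 138 and 235 ± 40.6, adjusted p = 0.114), and Rxra, the partner of Pparg on DNA, at 0.56 (569 ± 118 and 854 ± 249, adjusted p = 0.121). Rxra is the main retinoid X receptor of the epidermis as well.

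Of 20 further secreted and surface genes of fat cells tested, 14 were lower and 6 higher (median −0.35), and 8 were lower and 2 higher at an unadjusted p of 0.05. Mest, an imprinted gene linked to fat cell growth, was at −1.44 (SE 0.30, 197 ± 54.7 and 76.1 ± 36.8, adjusted p = 0.108), and Tshr, the thyrotropin receptor, at −0.58 (adjusted p = 0.125). Of 10 precursor genes tested 7 were lower and 3 higher (3 and 1 at that p), with Ly6a, which encodes Sca-1, at −0.50 (adjusted p = 0.128). Lrig1, an epidermal and stem cell gene in that list, was at 0.65 (adjusted p = 0.108), with 127 to 176 in wild type, against 187 to 293 in knockout, so its groups did not overlap. Among the 89 genes of these lists the groups did not overlap for Lrig1, higher, and Ebf1, lower, beside 1.02% of all genes wholly higher and 1.29% wholly lower. The 8 brown and beige fat genes tested held no gene at an unadjusted p of 0.05. Prdm16 was at −0.44 (adjusted p = 0.358) and Cox8b at −0.61 (adjusted p = 0.216).

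The mean levels of markers of other skin cells also differed between the genotypes. Among all genes tested, 12.9% were higher and 11.5% lower in knockout at an unadjusted p of 0.05 by limma. Of all genes, 1.02% lay wholly higher and 1.29% wholly lower in knockout. All 10 keratinocyte markers were higher in knockout, 8 at an unadjusted p of 0.05 (median 0.96), with a summed level of 55364 to 152444 in wild type, against 96707 to 297849 in knockout. All 10 endothelial markers were lower, 4 at that p (median −0.47), with sums of 3087 to 4856 and 1760 to 4120. Of 10 macrophage markers 8 were lower, 5 at that p (median −0.51), with sums of 24265 to 33556 and 14883 to 25248, and the groups did not overlap for 2 of them, Cd68 and Fcgr1. Of 16 muscle markers 13 were lower, 2 at that p (median −0.26; sums 57211 to 101285 and 45711 to 96463), and of 10 fibroblast markers 8 were lower, with 1, Postn, higher and 0 lower at that p (median −0.23; sums 50466 to 71186 and 46709 to 70455). Of 9 sebaceous genes tested 7 were higher, with 2 higher and 1, Soat1, lower at that p (median 1.06; sums 2253 to 2911 and 1965 to 3001), and all 6 hair follicle genes tested were higher, 2 at that p (median 0.72; sums 141 to 428 and 257 to 653). Plin2, which is also among the further lipid droplet genes, was the largest part of the sebaceous sums (mean 1743 for wild type, 1364 for knockout). Soat1 and Plin2 were the 2 sebaceous genes tested with a negative log2 difference. The sums and the values of Soat1 and Plin2 below therefore do not show the direction of the other 7. No marker of these lists was at 0 in every library. Of the 71 markers of other cells tested, 0 passed the adjusted threshold with limma or edgeR. DESeq2 called 6 of them higher and 0 lower, beside 3.02% of all genes higher and 2.64% lower. Among the most abundant markers the log2 differences were 0.85 for Krt14 and 0.94 for Krt6a of keratinocytes, −0.37 for Pecam1 and −0.50 for Cdh5 of endothelium, and −0.42 for Lyz2 and −0.59 for C1qb of macrophages. They were −0.13 for Acta1 and 0.0032 for Atp2a1 of muscle, −0.12 for Col3a1 and −0.40 for Dcn of fibroblasts, −0.46 for Soat1 and −0.38 for Plin2 of sebaceous glands, and 0.87 for Gata3 and 0.37 for Sox9 of hair follicles. For the 6 adipocyte markers the sums were 5190 to 11293 and 3596 to 8006, and all 6 had lower means (median −0.33, 2 at that p).

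**Figure D5:**
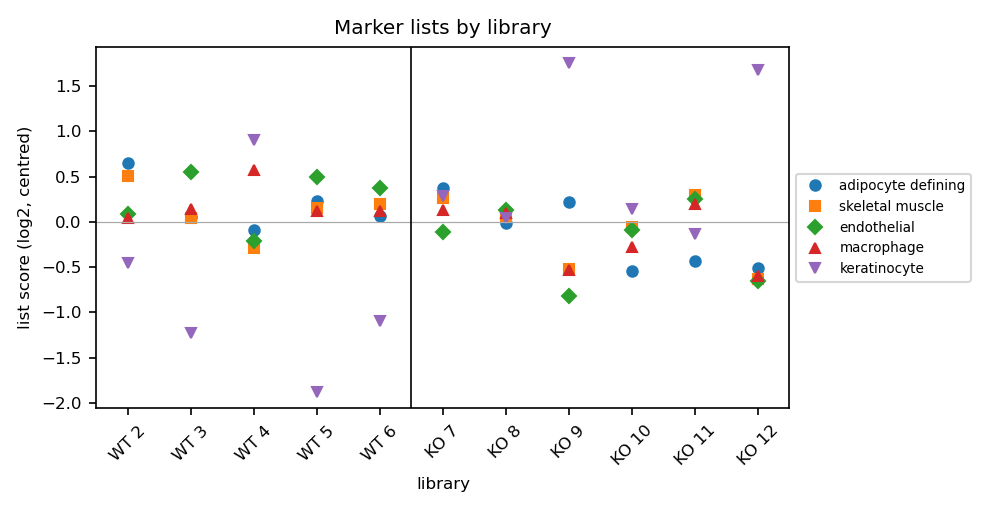
Scores of 5 marker lists by library (points), each the mean over its genes of log2(normalized count + 1) less the gene's mean over 11 libraries. Keratinocyte scores averaged −0.75 ± 1.05 (SD, n = 5) for wild type and 0.63 ± 0.85 (SD, n = 6) for knockout, and the adipocyte score 0.18 ± 0.29 and −0.15 ± 0.40.

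With the keratinocyte score as a covariate, 24 of the 30 dermal adipocyte genes were lower and 6 higher (median −0.18). The endothelial score gave the same counts (median −0.22). Both covariates were chosen after seeing the data, and the lowest limma adjusted p-values with them were 0.835 and 0.575. Depth as a covariate gave 18 lower and 12 higher (median −0.05), and the muscle score 19 and 11 (median −0.18). The libraries of 3000000 to 8000000 reads gave 17 lower and 13 higher (median −0.06). The shares of all genes lower and higher in these fits are not given here. The 49% and 51% above belong to the fit of all libraries without a covariate. These counts therefore do not show whether the adipocyte genes differ from the rest of the genes. The part of these other cell types and of depth in the differences above was not tested beyond the covariate values given. The size factors are set by all genes of the skin, so a level is a share of skin RNA and not an amount per fat cell.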

How the data were processed

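RNA of pulverized back skin, selected for mRNA, was sequenced for 5 wild-type and 6 Trex2 knockout mice, all treated with imiquimod, per the labels' protocols. The deposited values are normalized signal: each library's read counts were divided by its own size factor, and the authors used TopHat2 2.0.8, featureCounts 1.4.6 and DESeq2 1.8.1 on GRCm38, per the submitters' processing notes. The annotation was not given in the sources used here, nor was the strand option, and overlapping genes on opposite strands cannot be told apart. All values were whole multiples of what 1 read was worth (100% were whole to within 0.01 read), and reads were recovered by division. Replicate libraries differed by more than sampling noise (chi-square at least 4.74 times its degrees of freedom). Intervals and floors that rest on reads cover counting error only.

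Genotypes were compared with limma 3.58.1 (R 4.3.3), using the trend option, on log2(normalized count + 1) for the 13215 genes whose mean reached 10. P-values were adjusted by Benjamini-Hochberg over all of them, at a threshold of 0.05. Differences are knockout minus wild type on that scale, where low genes appear to change less than they do. Unadjusted p-values and intervals come from the same fit. Alternatives were edgeR 4.0.16 and DESeq2 1.42.0 on recovered reads, quantile, upper quartile and TMM scaling, a mean minimum of 50 or none, pseudocounts of 0.5 and 5, array weights, covariates (muscle, hair follicle and depth), reads thinned to 1208896 per library, libraries of 3000000 to 8000000 reads, and leaving out each library or knockout replicates 9 and 12. Keratinocyte and endothelial covariates were chosen after seeing the data. Correlations used 100000 random permutations, or all orders within knockout.

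The members and gene lists were chosen with earlier results of these data known. Every member is named, with Trex2 and, from each further list of fat cell genes, the 2 tested genes of smallest p, and from each marker list of other cells the 2 of highest mean. Of the list symbols 5 were found under another name (Tusc5 stands for Trarg1) and 2 were not matched. Exon lengths and positions come from GENCODE M21, promoters from RefSeq on GRCm38.p6. The scripts were tested on simulated counts.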

Additional observations from a re-analysis of the deposited data

Results flagged for a closer look

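Within a genotype, 7 of 60 sets of values (30 genes in each of the genotypes) held a library flagged by Dixon's ratio at its 95% critical value. The ratio is the gap to the nearest other library as a share of the range. Wild-type replicate 2 was the flagged library in 5 of the 7 sets. For normally distributed values about 3 of 60 sets would be flagged. The ratios were taken on normalized counts without logarithms, and all 7 flagged values were the highest of their set. That rate is therefore no fair baseline here, and the ratios were not computed on the log2 scale. It had 653 normalized counts of Adipoq and 935 of Retn, where wild-type replicates 3 to 6 had 226 to 335 and 337 to 427. For Cfd it had 8551 against 3486 to 4477, for Thrsp 693 against 31.6 to 71.2, and for Adrb3 105 against 30.9 to 45.1. In knockout, replicate 7 had 5743 of Cfd against 2405 to 3424 in the others, and replicate 9 had 66.7 of Adrb3 against 11.8 to 31.9. These flags were not adjusted for their number, and the 30 genes share the same libraries.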

How the results depend on the processing

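Over the 30 genes and 29 alternatives, 866 values were computed, of which 792 kept their direction and side of the threshold, 69 changed sign, 5 passed the threshold newly and 0 lost it. The sign changes fell on 15 genes, and 15 genes kept their sign under every alternative run. No paired analysis was possible because the groups share no replicate number. Leaving out 1 library gave 0 to 2 genes called lower (2 without wild-type replicate 4, Sncg at −1.21 and Fabp4 at −0.997) and 0 called higher, medians of −0.30 to −0.14, and 0 to 4 genes related to Adipoq. Its ranges were −0.16 to 0.29 for Acvr1c, −0.059 to 0.23 for Car3, −0.28 to 0.021 for Lep, −0.095 to 0.097 for Plin4 and −0.28 to 0.89 for Thrsp. The other alternatives gave medians of −0.30 to −0.05.

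DESeq2 called 2 genes lower (Sncg −1.07 and Angptl4 −0.97) and 1 higher (Cebpa 0.45). Signs differed from those above for Thrsp −0.45 and Acvr1c −0.013 with DESeq2, for Thrsp −0.50 and Acvr1c −0.0060 with edgeR, for Thrsp −0.26 and Acvr1c −0.0039 with array weights, for Plin4 −0.036 and Acvr1c −0.0076 with upper quartile scaling, and for Acvr1c −0.018 with quantile scaling. They differed for Plin1 0.012 and Plin4 −0.074 in thinned reads, for Adipoq 0.14, Lep 0.14, Plin1 0.064 and Plin4 −0.057 in libraries of 3000000 to 8000000 reads, and for Pck1 −0.11, Thrsp −0.50, Acvr1c −0.20 and Car3 −0.064 without knockout replicates 9 and 12. With covariates they differed for Lep 0.026, Cd36 0.029, Pck1 −0.043, Thrsp −1.07, Pnpla3 −0.11, Acvr1c −0.39 and Car3 −0.22 (hair follicle) and for Adipoq 0.011, Plin1 0.11, Plin4 −0.016, Gpd1 0.073 and Car3 −0.0061 (depth). Covariates chosen after seeing the data gave Lep 0.12, Cidea −0.030, Cd36 0.12, Acsl1 −0.021, Dgat2 −0.092, Pck1 −0.20, Thrsp −1.13, Pnpla3 −0.095, Lipe 0.0097, Acvr1c −0.33 and Car3 −0.34 (keratinocyte), and Cd36 0.056, Dgat2 −0.028, Pck1 −0.063, Thrsp −1.17, Pnpla3 −0.10, Acvr1c −0.35 and Car3 −0.31 (endothelial). The cause of these changes was not tested.

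The relations with Adipoq were not run under other filters, test tools or covariates, which leave the library values as they are, nor in the 7 libraries of middle depth. Aqp7, Acvr1c and Ucp1 rest on few reads, and depth limits them most. Cidea, Thrsp and Pnpla3 had 7 reads each in their library of fewest reads.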

Other observations

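Enzymes that build fatty acids were examined after the values of Thrsp had been seen, and these genes were chosen after their own values were seen. Fasn, fatty acid synthase, had 2679, 532, 777, 543 and 431 normalized counts in wild-type replicates 2 to 6. In knockout replicates 7 to 12 it had 1999, 619.6, 1941, 1305, 766 and 2187. Wild-type replicate 2 and knockout replicates 7, 9 and 12 were thus its highest libraries, and its log2 difference between genotypes was 0.79 (SE 0.45, limma adjusted p = 0.294). Slc25a1, the mitochondrial citrate carrier, had 909 in wild-type replicate 2 and 304 to 347 in the other wild-type libraries, with 508 and 580.3 in knockout replicates 7 and 9. Scd1, a fatty acid desaturase also of sebaceous glands, was highest in knockout replicates 7 and 9, with 9554 and 6691. Elovl6, an elongase, was highest in knockout replicate 12, with 425 against 57.2 to 260.4 in the other libraries.

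In knockout replicate 12, Fasn and Elovl6 were high while 11 of the 30 dermal adipocyte genes had their lowest value, among them Lep at 43 and Sncg at 70.8. These enzymes are made by epidermis, sebaceous glands and fat, and which cells gave the reads was not tested.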
